A study of Homo sapiens with 6 samples.

Results

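Fibronectin and 9 adhesive or matricellular glycoproteins of scar matrix were followed in LX-2 cells transfected with an siRNA against AEBP1 or with a scrambled siRNA. The genes were taken by symbol from the deposited expression table, and all 10 (FN1, VTN, TNC, THBS1, THBS2, THBS3, SPARC, TGFBI, POSTN and SPP1) were found among its 24789 genes and loci. LX-2 is an established line derived from human hepatic stellate cells, which lay down scar matrix in injured liver. AEBP1 gives rise to a secreted protein that binds collagen and to a shorter form reported to repress transcription. The knockdown group received AEBP1 siRNA at 50 nM and the control group scrambled siRNA at 50 nM. RNA was taken after 48 hours, and 3 libraries were sequenced per group. The control cells are labelled wild type, both groups went through the same lipid transfection, and the cells are all of 1 line. The sources used here do not say whether each library had a transfection of its own, so the p-values reflect only the spread among these libraries, which could be technical.

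Fibronectin is secreted as a dimer that cells stretch and assemble into fibrils through integrins, and these fibrils serve as a scaffold on which collagen is deposited. Matricellular proteins sit in the same matrix without building its fibres: they bind cell surface receptors, growth factors and proteases and tune adhesion, and most of them are made during wound repair. In fibrotic liver, activated stellate cells are known as a source of cellular fibronectin, tenascin-C and thrombospondins, while vitronectin comes mainly from hepatocytes and osteopontin is made by biliary epithelium and macrophages as well as by stellate cells.

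The libraries held 34433510 to 41600600 counts in the AEBP1 siRNA group and 41330380 to 49432960 in the scrambled group. AEBP1 itself did not follow the labels in 2 of the 6 libraries. It was at 29.7, 27.7 and 48.3 CPM (counts scaled to library size by TMM) in the libraries labelled AEBP1 siRNA 1, 2 and 3, against 53.6, 48.7 and 25.1 CPM in those labelled scrambled 1, 2 and 3. The library labelled AEBP1 siRNA 3 was thus close to scrambled 2, and scrambled 3 was the lowest of all (group difference, exact two-sided permutation p = 0.6, where 0.1 is the smallest this design allows). All directions below go by these labels. The library labelled AEBP1 siRNA 1 stood apart in another way, with a first principal component score of 65.9 where the other 5 lay between -17.3 and -5.74. Of 14 stellate cell markers, 6 were below 1 FPKM (COL1A2, DES, LRAT, GFAP, HAND2 and RELN). VIM, COL1A1 and TIMP1 were the most abundant. LRAT, the enzyme that esterifies retinol in quiescent stellate cells, had 0 counts in all 6 libraries. COL1A2 averaged 0.690 FPKM, where COL1A1 averaged 201 FPKM, and ACTA2 averaged 3.15 FPKM.

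Per length, the members covered a wide range of levels. The unit for this is FPKM (fragments per kilobase of transcript, scaled to library size), which the authors deposited beside the counts. FN1 (ENSG00000115414) had the highest level, at 244 FPKM ± 57.5 (SD over the 6 libraries). SPARC (ENSG00000113140), a collagen-binding glycoprotein, had 143 FPKM ± 8.19, and TGFBI (ENSG00000120708), an integrin-binding fasciclin-domain protein induced by TGF-beta, had 126 FPKM ± 6.59. FN1 was above SPARC, and SPARC above TGFBI, in each of the 6 libraries, although the ranges of neighbours overlapped between libraries. THBS2, THBS1 and TNC followed at 31.7, 18.7 and 10.8 FPKM, with no overlap between neighbours. The remaining 4 members were below 1 FPKM: THBS3 averaged 0.692, VTN 0.216, POSTN 0.0409 and SPP1 0.0194 FPKM. The ranges of POSTN and SPP1 overlapped, so their order was not resolved. Summed over the 10 genes, the level was 460, 531 and 640 FPKM in AEBP1 siRNA 1, 2 and 3, against 600, 638 and 587 FPKM in scrambled 1, 2 and 3, most of it from FN1, SPARC and TGFBI.

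**Figure D1:**
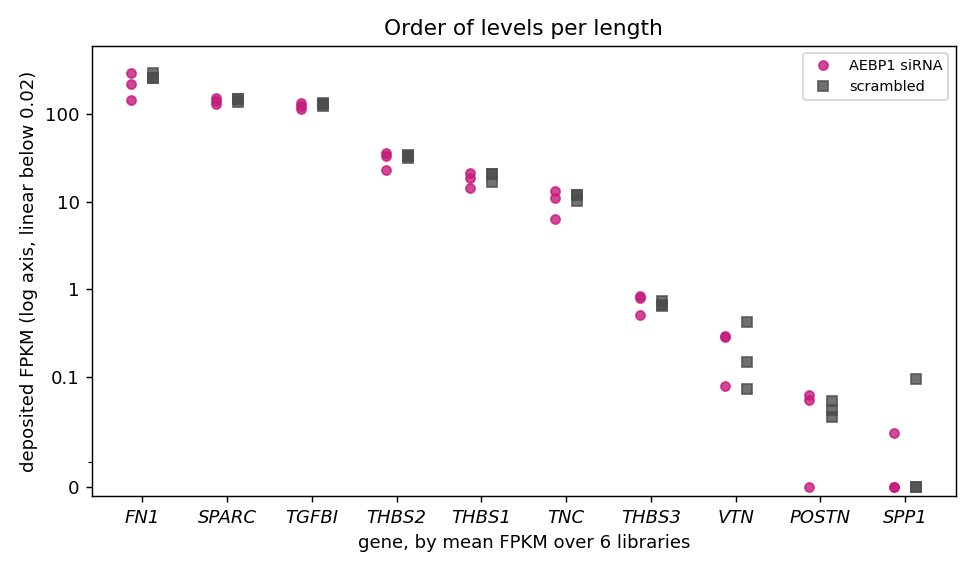
Deposited FPKM (vertical log axis, linear below 0.02) of the 10 genes in each library, ordered by mean FPKM. Circles are the 3 AEBP1 siRNA libraries and squares the 3 scrambled libraries. FN1, SPARC and TGFBI lie above 100 FPKM in every library, and POSTN and SPP1 reach 0 in at least 1 library.

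The promoters of the 6 abundant members are printed here because AEBP1 siRNA 1 split these genes in 2. FN1, TNC, THBS1 and THBS2 were lowest in that library, while SPARC and TGFBI were not. This split rests on 1 library and also separates the longer genes from the shorter, as given below. Whether it has to do with promoters was not tested. Each window runs from 250 bases before to 50 bases after a RefSeq transcription start of GRCh38.p14, and all 10 members had an entry, THBS3 with 2 windows. The counts were made on hg19, so these coordinates locate the genes only on the newer build. Capitals mark matches on either strand to the TATA box TATAAA, the cyclic AMP response element TGACGTCA, the GC box GGGCGG, the CCAAT box CCAAT, the AP-1 element TGANTCA and the TEAD element GGAATG.
FN1, chr2:215436019-215436318, minus strand: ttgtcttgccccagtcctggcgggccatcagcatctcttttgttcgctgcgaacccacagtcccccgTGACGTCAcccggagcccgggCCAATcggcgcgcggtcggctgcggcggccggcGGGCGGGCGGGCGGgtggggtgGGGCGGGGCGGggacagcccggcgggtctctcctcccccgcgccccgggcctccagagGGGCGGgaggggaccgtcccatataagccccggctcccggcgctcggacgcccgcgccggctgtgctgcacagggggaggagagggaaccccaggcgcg
TNC, chr9:115118108-115118407, minus strand: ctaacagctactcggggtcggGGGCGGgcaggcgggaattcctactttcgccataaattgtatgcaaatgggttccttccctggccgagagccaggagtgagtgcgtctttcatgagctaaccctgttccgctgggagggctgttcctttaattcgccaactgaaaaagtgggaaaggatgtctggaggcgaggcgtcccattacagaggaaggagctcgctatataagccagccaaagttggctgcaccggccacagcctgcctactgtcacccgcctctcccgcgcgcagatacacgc
THBS1, chr15:39580829-39581128, plus strand: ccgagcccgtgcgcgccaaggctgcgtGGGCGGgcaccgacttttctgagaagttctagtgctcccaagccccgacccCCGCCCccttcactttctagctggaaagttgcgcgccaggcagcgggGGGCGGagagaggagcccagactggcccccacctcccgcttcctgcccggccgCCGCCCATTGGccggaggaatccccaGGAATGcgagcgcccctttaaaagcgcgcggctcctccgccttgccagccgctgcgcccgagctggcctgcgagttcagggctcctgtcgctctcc
THBS2, chr6:169253797-169254096, minus strand: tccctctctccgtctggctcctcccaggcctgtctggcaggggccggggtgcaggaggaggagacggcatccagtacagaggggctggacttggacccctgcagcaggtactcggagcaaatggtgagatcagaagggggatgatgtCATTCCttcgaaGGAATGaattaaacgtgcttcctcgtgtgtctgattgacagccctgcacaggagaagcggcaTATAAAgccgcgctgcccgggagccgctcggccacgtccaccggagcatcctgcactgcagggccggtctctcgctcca
SPARC, chr5:151686866-151687165, minus strand: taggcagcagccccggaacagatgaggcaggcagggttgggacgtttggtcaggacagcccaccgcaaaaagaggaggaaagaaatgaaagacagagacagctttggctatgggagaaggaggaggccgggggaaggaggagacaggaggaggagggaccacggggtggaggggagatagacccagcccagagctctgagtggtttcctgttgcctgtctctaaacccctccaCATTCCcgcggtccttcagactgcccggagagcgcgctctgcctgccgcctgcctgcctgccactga
TGFBI, chr5:136028738-136029037, plus strand: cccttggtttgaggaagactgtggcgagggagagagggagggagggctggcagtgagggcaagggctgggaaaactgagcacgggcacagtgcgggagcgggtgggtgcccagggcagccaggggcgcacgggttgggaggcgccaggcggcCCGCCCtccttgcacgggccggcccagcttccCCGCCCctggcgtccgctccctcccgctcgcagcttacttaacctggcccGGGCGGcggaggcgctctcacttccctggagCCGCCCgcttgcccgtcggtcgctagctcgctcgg
The FN1 window held 6 GC boxes, of which the first overlaps the second, the second the third and the fourth the fifth, a CCAAT box and a cyclic AMP response element at -183. That element was in 1 of the 11 member windows and in 1.84% of the 34943 windows of this length, and GC boxes were in 6 of 11 and in 44.9%. THBS1 held 4 GC boxes, 1 of them adjoining a CCAAT box, and a TEAD element at -46. THBS2 held a TATA box at -29 and a pair of TEAD elements, TGFBI held 4 GC boxes, TNC 1 GC box and SPARC 1 TEAD element at -17. TATA boxes were in 2 of 11 member windows and in 11.6% of all, CCAAT boxes in 4 and 34.6%, TEAD elements in 4 and 14.04%, and AP-1 elements in 1 (POSTN, not printed) and 7.72%. None of these exact strings was shared by FN1, TNC, THBS1 and THBS2. The FN1 and TNC windows each held tataag, which the search for TATAAA did not count. These matches describe letters only.

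None of the members passed the test between the labelled groups. With edgeR's quasi-likelihood test over 16250 genes, 0 of the 8 members tested had an adjusted p under 0.05, where 1 gene of all, or 0.00615%, did. At an unadjusted p under 0.05 the counts were 0 of 8 members and 216 genes (1.33%). DESeq2 and limma-voom also called 0 members, as did edgeR without AEBP1 siRNA 1 or without replicate 3 of both groups. The labelled groups overlapped for every member, while they did not overlap for 963 genes (5.93%). Of the 8 tested members, 7 had estimates below 0, as had 50.6% of all genes, and the median log2 fold change was -0.12 against -0.0023 over all genes. This count depended on the libraries used. Without AEBP1 siRNA 1, 4 of the 8 were below 0 and the member median was -0.017. With replicate 3 of both groups left out, 8 of 8 were below 0 and the member median was -0.21. A small estimate does not show that the groups were alike, and the 95% intervals given with each gene say how large a change the data leave possible. In bulk RNA, fewer cells of a kind and less RNA per cell cannot be told apart.

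FN1, the fibronectin gene, had 1289.9, 1980.0 and 2739 CPM in AEBP1 siRNA 1, 2 and 3, against 2446, 2774 and 2363 CPM in scrambled 1, 2 and 3. The library labelled AEBP1 siRNA 3 was almost as high as scrambled 2, the highest, while AEBP1 siRNA 1 and 2 were below all 3 scrambled libraries. Group means were 2003 CPM ± 725 in AEBP1 siRNA and 2528 CPM ± 217 in scrambled (SD, n = 3 each). The log2 fold change was -0.34 with a 95% interval from -0.88 to 0.21 (SE 0.236, edgeR adjusted p = 0.991). Without AEBP1 siRNA 1 it was -0.099. With replicate 3 of both groups left out, the libraries in which AEBP1 went against the label, it was -0.67 (edgeR adjusted p = 0.963, unadjusted p = 0.0218). There FN1 and TNC had an unadjusted p under 0.05, as did 4.7% of genes, and the same held without AEBP1 siRNA 3, where 3.22% of genes did. With AEBP1 siRNA 1 dropped in addition to replicate 3 of both groups, which leaves a single AEBP1 siRNA library assumed to vary like the scrambled ones, FN1 was at -0.40 (edgeR adjusted p = 0.0736). In that fit 0 members and 1.46% of genes had an adjusted p under 0.05, and FN1, TNC and SPARC and 12.2% of genes an unadjusted p under 0.05. FN1 overlaps ATIC, which was at 131 CPM, in RefSeq, and the strand setting of the counting was not given in the sources used here. VTN, vitronectin, the other classical cell adhesion glycoprotein of the list, was near the detection limit. It had 25, 8 and 20 counts in the AEBP1 siRNA libraries and 5, 51 and 16 counts in the scrambled libraries. Its log2 fold change of -0.12 had an interval from -1.89 to 1.64. With these low counts and their spread between libraries, a change of several fold in either direction was left possible.

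**Figure D2:**
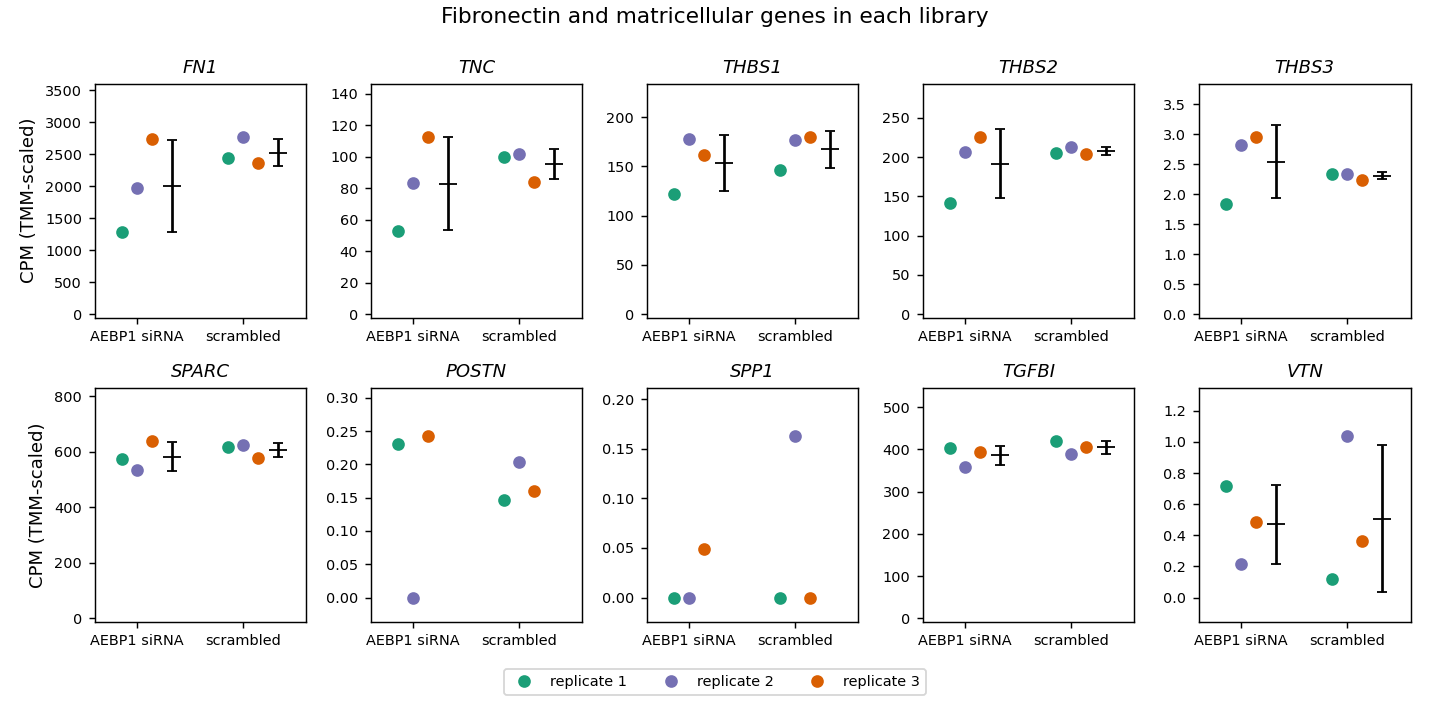
CPM of each of the 10 genes (vertical axes from about 0, a scale per gene) in the 3 AEBP1 siRNA libraries, left, and the 3 scrambled libraries, right; colours give the replicate number and black bars the mean ± SD, left out for POSTN and SPP1. FN1 was at 1289.9 CPM in AEBP1 siRNA 1 and between 1980.0 and 2774 CPM in the other 5 libraries, and the groups overlap in every panel.

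Tenascin-C (TNC), a large hexameric protein that loosens the adhesion of cells to fibronectin, followed FN1 closely. It had 53.0, 83.2 and 112.6 CPM in AEBP1 siRNA 1, 2 and 3, against 99.9, 101.7 and 84.2 CPM in scrambled 1, 2 and 3. AEBP1 siRNA 3 was the highest library and AEBP1 siRNA 1 the lowest. Its log2 fold change was -0.20 (interval from -0.75 to 0.35, SE 0.239, edgeR adjusted p = 0.991), and the estimate was 0.040 without AEBP1 siRNA 1 and -0.57 when replicate 3 was dropped from both groups (edgeR adjusted p = 0.967, unadjusted p = 0.047).

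The thrombospondins are multimeric calcium-binding glycoproteins, of which THBS1 and THBS2 bind CD36 and inhibit angiogenesis, and THBS1 can release TGF-beta from its latent complex. THBS1 (ENSG00000137801) had 121.6, 177 and 161 CPM in AEBP1 siRNA 1, 2 and 3, against 146, 177 and 180.1 CPM in scrambled 1, 2 and 3. THBS2 (ENSG00000186340) had 142, 207 and 226 CPM in AEBP1 siRNA libraries and the narrow span of 206, 213 and 204 CPM in scrambled libraries. Both genes were lowest in AEBP1 siRNA 1, and their log2 fold changes of -0.13 (SE 0.155) and -0.12 (SE 0.164) had intervals from -0.48 to 0.23 and from -0.49 to 0.26. Without that library the estimates were 0.015 and 0.059. THBS3 (ENSG00000169231), a pentameric family member, had 1.84, 2.82 and 2.95 CPM in AEBP1 siRNA libraries, against 2.34, 2.34 and 2.24 CPM in scrambled libraries. It was the only tested member with an estimate above 0 (log2 fold change 0.14, interval from -0.41 to 0.70). In RefSeq it overlaps MTX1, which was at 14.4 CPM, and THBS1 overlaps FSIP1 at 0.908 CPM, so reads of THBS3 may be shared and its level is uncertain.

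SPARC and TGFBI differed little between libraries. SPARC, which binds collagen and limits cell spreading, had 573, 534 and 639 CPM in AEBP1 siRNA 1, 2 and 3, against 615, 625 and 577 CPM in scrambled 1, 2 and 3. TGFBI had 403, 359 and 395 CPM in AEBP1 siRNA libraries, against 419.9, 389.5 and 405 CPM in scrambled libraries. For both genes AEBP1 siRNA 2 was the lowest library. AEBP1 siRNA 1 was next for SPARC, close to scrambled 3, and in the middle of the range for TGFBI. The coefficients of variation within groups were 9.09% and 4.18% for SPARC and 6.07% and 3.75% for TGFBI in AEBP1 siRNA and scrambled libraries, where those of FN1 were 36.2% and 8.59%. Within the scrambled libraries alone, the coefficients of THBS2 (2.39%) and THBS3 (2.53%) were lower than both. THBS3 had only 96, 115 and 98 counts there, so counting error leaves its coefficient unresolved. The log2 fold changes of SPARC and TGFBI were -0.058 (interval from -0.29 to 0.18) and -0.070 (interval from -0.29 to 0.15), the narrowest intervals among the tested members.

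Periostin (POSTN), a TGFBI relative that supports collagen crosslinking, and osteopontin (SPP1), a phosphorylated integrin ligand, did not pass the filter on low counts. POSTN had 8, 0 and 10 counts in AEBP1 siRNA 1, 2 and 3, against 6, 10 and 7 counts in scrambled 1, 2 and 3. SPP1 had 0, 0 and 2 counts in AEBP1 siRNA libraries, against 0, 8 and 0 counts in scrambled libraries. A count of 0 allows up to 3 counts, or 0.0610 to 0.0863 CPM depending on the library, and covers counting error only. Most markers of hepatocytes, macrophages and endothelium were low, while those of biliary epithelium were mixed. Of 12 hepatocyte markers 10 were below 1 FPKM, as were 9 of 10 macrophage markers, 8 of 9 endothelial markers and 5 of 9 biliary epithelial markers. ALB had at most 4 counts and PTPRC at most 6 counts in any library. The exceptions were CPS1 and SERPINA1 of the hepatocyte list, CD68, FLT1, and the keratins KRT18, KRT8 and KRT7 with SOX9. The summed marker levels ranged from 9.36 to 15.1 FPKM in AEBP1 siRNA and from 12.5 to 14.9 FPKM in scrambled libraries for hepatocytes, from 10.7 to 12.4 and 9.21 to 11.4 FPKM for macrophages, from 9.06 to 11.3 and 10.4 to 10.97 FPKM for endothelium, and from 114.7 to 158 and 113.0 to 122.8 FPKM for biliary epithelium.

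AEBP1 siRNA 1 was the library farthest from the mean for FN1, TNC, THBS1, THBS2 and THBS3. Relative to the mean log2 CPM of the other 5 libraries, this library differed by -0.92 for FN1, -0.85 for TNC, -0.57 for THBS2, -0.46 for THBS1 and -0.43 for THBS3, but by -0.058 for SPARC and 0.036 for TGFBI. FN1 there was 0.524 times the mean CPM of the other libraries. This library was the lowest of the 6 for 5 of the 8 tested members (FN1, TNC, THBS1, THBS2 and THBS3), where it was the lowest for 32.7% of all genes tested. In 2 related lists described below, it was the lowest for 9 of 17 tested receptors (52.9%) and 4 of 16 tested other matricellular genes (25%).

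**Figure D3:**
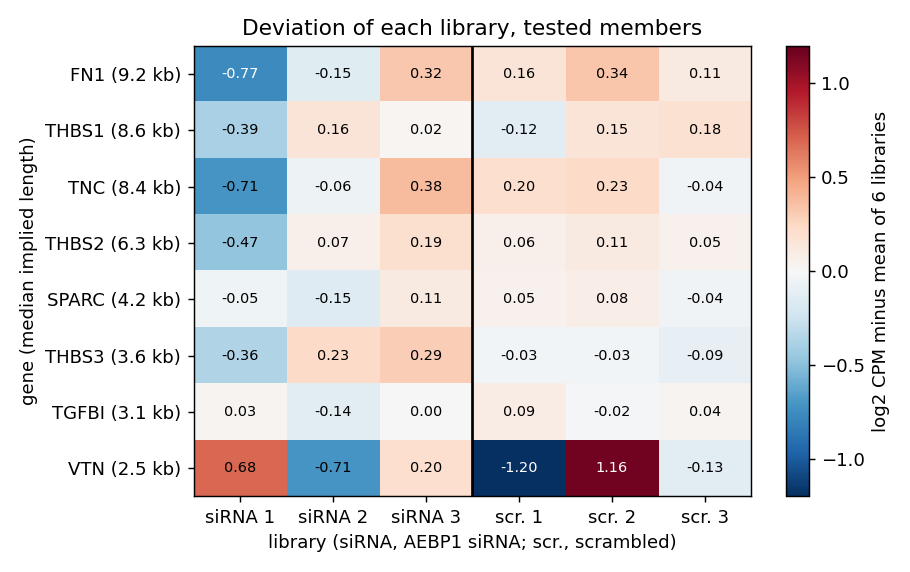
Log2 CPM of each library minus the mean of the 6 libraries (colour and printed value) for the 8 tested genes, ordered by implied length in kilobases, with the AEBP1 siRNA libraries left of the black line and the scrambled libraries right of it. FN1 and TNC stand at -0.77 and -0.71 in AEBP1 siRNA 1, and SPARC and TGFBI at -0.048 and 0.030.

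Gene length moved with this difference for the abundant members. The length behind each deposited FPKM can be read back from the count, the FPKM and the library total, and its median over libraries was 9244 bases for FN1, 8626 for THBS1, 8443 for TNC and 6279 for THBS2, against 4159 for SPARC and 3135 for TGFBI. When the 11594 genes averaging at least 5 CPM were split into 4 classes by this length, the median difference of AEBP1 siRNA 1 from the other 5 libraries was 0.32 in class 1, the shortest, then 0.11 and -0.087, and -0.39 in class 4, the longest. FN1, TNC, THBS1 and THBS2 lie in class 4, whose genes had a central range (25th to 75th percentile) from -0.62 to -0.18, so FN1 and TNC were below that range and THBS1 and THBS2 within it. THBS3 did not follow this order. It averaged 2.42 CPM, too low to enter a class, and differed by -0.43 at an implied length of 3557 bases, a length within class 2, whose median was 0.11 and whose central range ran from -0.039 to 0.25. SPARC was close to the median of class 3, and TGFBI was 0.036 where class 2 had a median of 0.11. In the other 5 libraries the class medians stayed between -0.13 and 0.13.

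**Figure D4:**
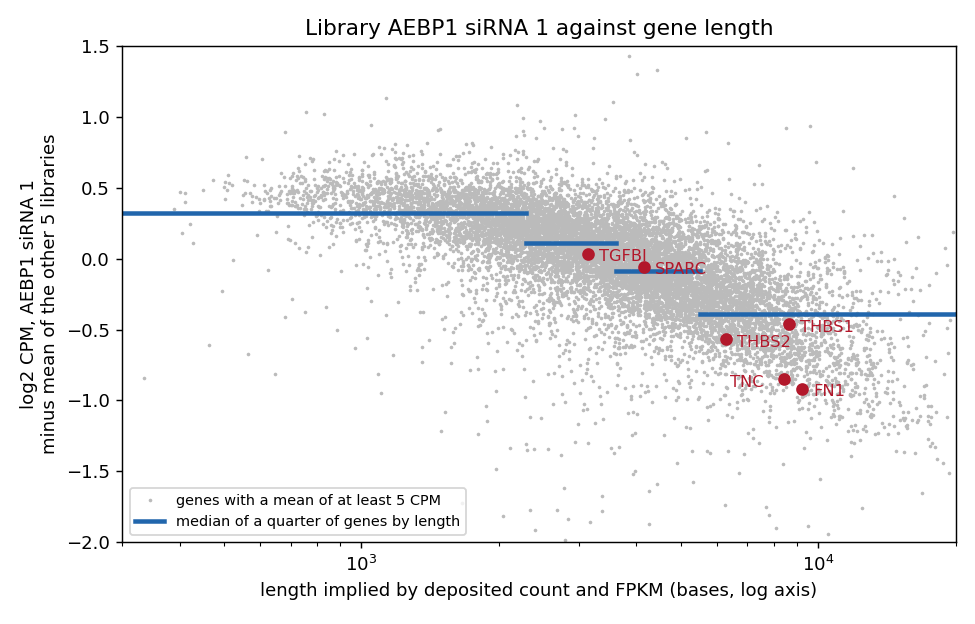
Log2 CPM of AEBP1 siRNA 1 minus the mean of the other 5 libraries (vertical axis) against the length implied by the deposited count and FPKM (bases, log axis) for genes averaging at least 5 CPM; 71 of 11594 lie outside the axes. Blue lines are the medians of 4 classes of equal size, from 0.32 in the shortest to -0.39 in the longest, and red points are the 6 abundant members, from FN1 at -0.92 to TGFBI at 0.036.

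When the length trend of every library was taken out, a step chosen after the data were seen, the spread of FN1 narrowed. Its deviations from the mean of 6 libraries became -0.33, -0.27 and 0.24 in AEBP1 siRNA 1, 2 and 3, against 0.17, 0.23 and -0.035 in scrambled 1, 2 and 3. The libraries labelled AEBP1 siRNA 1 and 2 remained the lowest, and scrambled 3 was the next. TNC was at -0.32, -0.17 and 0.31 in AEBP1 siRNA libraries, against 0.22, 0.14 and -0.17 in scrambled libraries. THBS1 was at 0.013, 0.048 and -0.053 in AEBP1 siRNA libraries, against -0.11, 0.058 and 0.051 in scrambled libraries, so AEBP1 siRNA 1 was no longer its lowest library. THBS2 and THBS3 were still lowest in AEBP1 siRNA 1, at -0.24 and -0.39, and SPARC and TGFBI in AEBP1 siRNA 2, at -0.17 and -0.12. The fitted log2 fold changes between the labelled groups became -0.22 for FN1, -0.10 for TNC, 0.0023 for THBS1 and -0.051 for THBS2, each with an edgeR adjusted p of at least 0.997.

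**Figure D5:**
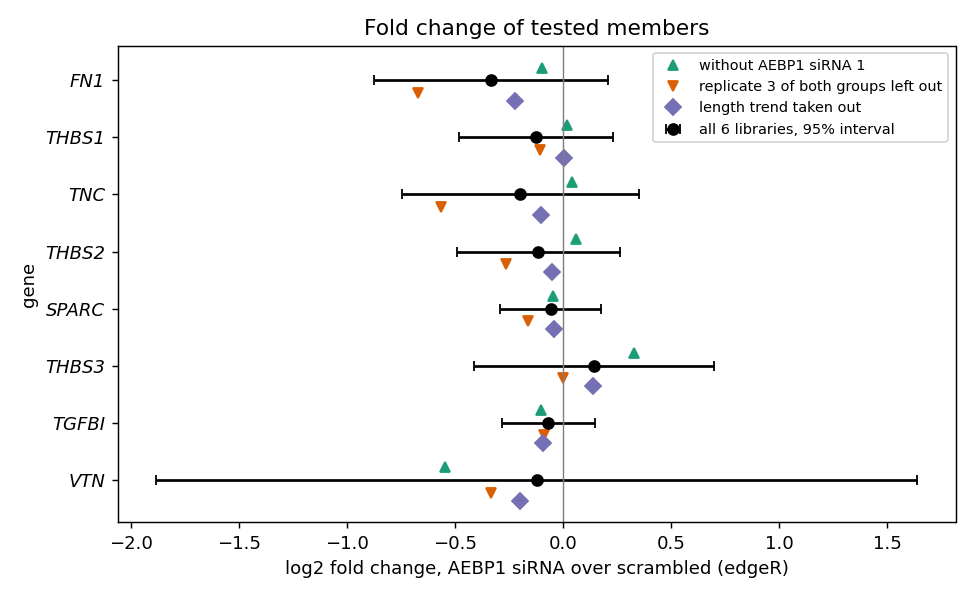
Log2 fold change of AEBP1 siRNA over scrambled for the 8 tested genes by edgeR: black circles with 95% intervals use all 6 libraries, and coloured markers leave out AEBP1 siRNA 1, leave out replicate 3 of both groups, or take out the length trend. Every interval includes 0, and FN1 stands at -0.34 with all libraries, -0.099, -0.67 and -0.22 in the others.

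The genes most like FN1 across the 6 libraries were DOCK9, APOL6, RGPD3, TCF4 and RREB1. Likeness was the root mean square difference between centred log2 CPM values, over 11066 annotated genes averaging at least 5 CPM, and it was between 0.0425 (DOCK9) and 0.0536 (RREB1) for these genes, where the median gene had 0.403. DOCK9, an exchange factor for the GTPase CDC42, had 101.9, 158 and 214 CPM in AEBP1 siRNA 1, 2 and 3, against 189, 214 and 172 CPM in scrambled 1, 2 and 3. TCF4 and RREB1 encode transcription factors. RGPD3 belongs to a family of near-identical copies, so its count is uncertain. All 5 were lowest in AEBP1 siRNA 1, which follows largely from their choice by likeness to FN1. Each had an edgeR adjusted p of 0.991. That value is not particular to them, being also the lowest among the members and in every other list. Their implied lengths ran from 6292 to 11387 bases. Among the members, TNC was nearest to FN1, at 0.0919 and place 25, followed by THBS2 at 0.188 and place 394. THBS1, SPARC and TGFBI were at 0.273, 0.332 and 0.381. With only 6 libraries such a ranking is a description.

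Other matricellular genes showed no called change either. Of 24 genes on the list 16 were tested, 0 were called in either direction, 9 had estimates above 0 and 7 below, and the median was 0.071. LGALS1, a galectin that binds matrix glycans, was at 1161 FPKM ± 261 in AEBP1 siRNA and 1021 FPKM ± 94.6 in scrambled libraries (log2 fold change 0.17, SE 0.161). CYR61 (CCN1), an integrin ligand of the CCN family, was at 169 FPKM ± 37.4 in AEBP1 siRNA and 145 FPKM ± 26.2 in scrambled libraries (log2 fold change 0.21, SE 0.182). In AEBP1 siRNA 1 the median of this list differed from the other libraries by 0.12, where that of the members differed by -0.45. The lists were not matched for implied length. LGALS1 (635 bases) and CYR61 (2576 bases) differed by 0.50 and 0.47, but TNXB (10692 bases) and SPOCK1 (5426 bases) by -0.62 and -0.40. The receptors described next had a median of -0.15, with LRP1 (16702 bases) at -0.97 and CALR (2139 bases) at 0.33. Whether length accounts for the difference between lists was not tested.

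Of 20 receptors of these proteins, 15 were at or above 1 FPKM and 5 below it (ITGA8, ITGA9, ITGB8, CD36 and STAB1). CD36 had 0 counts in each AEBP1 siRNA library, against 4, 0 and 0 counts in scrambled 1, 2 and 3. Of the 20, 17 were tested and 0 called. Of these 17, 13 had estimates below 0 and 4 above, with a median of -0.057. ITGB1, the beta chain shared by the main fibronectin receptors, was at 211 FPKM ± 16.1 in AEBP1 siRNA and 212 FPKM ± 6.52 in scrambled libraries, a log2 fold change of -0.016 (SE 0.0946). CALR, calreticulin, a partner of LRP1 in thrombospondin signalling, was at 209.9 FPKM ± 30.6 in AEBP1 siRNA and 192 FPKM ± 6.39 in scrambled libraries. SDC4, the heparan sulfate coreceptor for fibronectin, was at 95.5 FPKM ± 21.2 in AEBP1 siRNA and 82.3 FPKM ± 19.7 in scrambled libraries. Of 15 proteases and activators of matrix turnover, 12 were tested and 0 called, with 5 estimates above 0, 7 below and a median of -0.035. PLAUR, the urokinase receptor, which also binds vitronectin, was at 70.9 FPKM ± 9.64 in AEBP1 siRNA and 63.0 FPKM ± 1.65 in scrambled libraries. MMP1, the interstitial collagenase, was at 45.9 FPKM ± 5.58 in AEBP1 siRNA and 46.8 FPKM ± 10.8 in scrambled libraries, and PLAT, tissue plasminogen activator, at 23.1 FPKM ± 1.17 in AEBP1 siRNA and 23.7 FPKM ± 0.337 in scrambled libraries (SD, n = 3 each throughout). Every tested gene named from these lists had an edgeR adjusted p of at least 0.991.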

How the data were processed

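RNA was sequenced from 6 LX-2 libraries made from 1 μg of RNA each, per the labels' protocols. The authors deposited raw counts and FPKM per gene, per the file headers, on build hg19, per the submitters' processing notes. Aligner, counting program, annotation, strand setting and filters were not given in the sources used here. Lines without values (17) were left out, and 27 symbols that had become dates were restored by gene ID. No library was a copy of another (chi-square per degree of freedom at least 8.02 for each pair).

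The counts were filtered by filterByExpr, scaled by TMM and compared by group alone with edgeR 4.0.16 (R 4.3.3, quasi-likelihood test), adjusted by Benjamini-Hochberg over 16250 genes. Standard errors are log2 fold changes over the root of F. Log2 deviations used a pseudocount of 0.1 CPM, and length-adjusted ones edgeR log2 CPM with a lowess trend on implied length. The test was checked on simulated data. Alternatives were a replicate block, left-out libraries, other scalings and filters, no assembled loci, DESeq2 1.42.0, limma-voom (limma 3.58.1), limma on log2(FPKM + 1) or log2(FPKM + 0.1), and a length offset added after the data were seen.

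Members and lists were chosen with earlier results of these data known. Named were all members, AEBP1, the 3 genes per list with the highest mean FPKM, called list genes and the 5 genes most like FN1. A gene named by this rule is not reported here. LRAT, COL1A2, ACTA2, ALB, PTPRC, SOX9, TNXB, SPOCK1, LRP1 and overlapping genes were picked after seeing their values. Promoters are from RefSeq.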

Additional observations from a re-analysis of the deposited data

How the results depend on the processing

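Under all 19 alternatives 0 members were called. FN1 and TGFBI stayed below 0 under each of the 19, FN1 from -0.67 with replicate 3 of both groups left out to -0.099 without AEBP1 siRNA 1. Without single libraries, TNC ran from -0.48 to 0.040, THBS1 from -0.24 to 0.015, THBS2 from -0.25 to 0.059, SPARC from -0.13 to 0.00025 and VTN from -0.57 to 0.94, and the genes called from 0 to 2 against 1. Estimates also changed sign for THBS3 with replicate 3 of both groups left out (-0.0032), for THBS1 with AEBP1 siRNA 1 left out as well (0.14) or with the length offset (0.0023), and for VTN by limma-voom (0.15) and on log2(FPKM + 1) (0.0089) or log2(FPKM + 0.1) (0.084); the cause was not tested. Genes called were 3 with no filter, 6 by DESeq2, 2 by limma-voom and 3 on log2(FPKM + 0.1). With replicate 3 of both groups and AEBP1 siRNA 1 left out, 249 genes (1.46%) were called and AEBP1 was at -0.88. With all 6 libraries AEBP1 was at -0.27. Replicate 3 of both groups holds the libraries in which AEBP1 went against the label. The lower AEBP1 estimate without them follows from that choice and cannot show that the knockdown worked. The reduced fit also has a single AEBP1 siRNA library, assumed to vary like the scrambled ones. FN1 was there at -0.40 (edgeR adjusted p = 0.0736), and without AEBP1 siRNA 3 it was at -0.63. Whether the shared replicate numbers pair the libraries is not known. Deviations from the group mean correlated at 0.0961, -0.0078 and -0.10 for libraries with the same number. Scrambled 3 correlated best with AEBP1 siRNA 2 (0.141). With so few libraries per group and AEBP1 siRNA 1 apart from the others, these correlations cannot settle the question. The replicate block called 2 genes and put VTN at 0.16.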

Other observations

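The length implied by count and FPKM was not the same in every library for some members. For TNC it was 7513 bases in AEBP1 siRNA 2 and between 8240 and 8530 bases in the other 5 libraries, so that library ranked higher by FPKM (11.1, above scrambled 3 at 10.3) than by CPM (83.2, below scrambled 3 at 84.2). For THBS3 it was 3077 bases in scrambled 3 and between 3548 and 3648 bases elsewhere. For FN1 it ranged from 9074 to 9435 bases over the 6 libraries.

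In the longest class of genes the median deviation was -0.39 in AEBP1 siRNA 1, 0.12 in AEBP1 siRNA 2 and 0.072 in AEBP1 siRNA 3, against -0.012, 0.098 and 0.13 in scrambled 1, 2 and 3. In the shortest class it was 0.32, -0.12 and -0.029 in AEBP1 siRNA 1, 2 and 3, against 0.049, -0.072 and -0.13 in scrambled 1, 2 and 3.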
